A study of Mus musculus with 38 samples.

Results

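The genes described are 10 mouse genes of blood-vessel growth signalling, taken as a named list from the 55487 genes counted in the series: the secreted factors Vegfa, Vegfb, Vegfc, Pgf, Adm, Angpt2 and Angptl4, and the receptors Flt1, Nrp1 and Nrp2. All 10 were found. Poly(A) RNA was sequenced from 38 libraries of 3 kinds of mouse cell, and raw read counts per gene were analysed. BV2 cells are an immortalised line of microglial origin. GL261 is a glioma line, here with stable expression of the plasmid pEGFP-N1. BMDM are macrophages grown from the bone marrow of wild-type (WT) mice. In the first experiment each was kept for 16 h in normoxia (21% oxygen) or hypoxia (under 0.1% oxygen), alone or in direct co-culture. BV2 cells were seeded onto GL261 cells at 1 to 2 and BMDM at 1 to 1. Libraries of both partners were analysed for the BV2 co-culture, and of the macrophages only for the BMDM co-culture. A second experiment had no glioma cells: its BV2 cells and BMDM were kept in normoxia with dimethyl sulfoxide (DMSO), in hypoxia with DMSO, or in hypoxia with 10 nM panobinostat. Panobinostat inhibits histone deacetylases, and no library had panobinostat in normoxia. Groups held 2 libraries, and the normoxic and hypoxic BMDM co-cultures 3. The labels of the first BV2 and GL261 libraries call them biological replicates, and no label says whether cultures or mice were separate, so p-values measure only the spread between these libraries. How partner cells were separated, and whether GL261 was grown from a single clone, is not given in the sources used here. The medium of BV2 and that of BMDM differed in serum content.

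Vascular endothelial growth factor A, encoded by Vegfa, is the main secreted signal for the growth of new vessels, and its gene is a textbook target of the hypoxia-inducible factors. Vegfa binds the receptor tyrosine kinases Kdr (VEGFR2), which carries most of the growth signal, and Flt1 (VEGFR1), which binds it tightly and can act as a decoy. Placental growth factor (Pgf) and Vegfb bind Flt1 but not Kdr, Vegfc acts mainly on lymphatic vessels through Flt4, and the neuropilins Nrp1 and Nrp2 are co-receptors shared with class 3 semaphorins. Adrenomedullin (Adm) is a vasodilator peptide that signals through Calcrl with a Ramp protein. Angiopoietin-2 (Angpt2) modulates the receptor Tek and loosens vessel walls, and Angptl4 is a secreted inhibitor of lipoprotein lipase that also acts on vessels. In gliomas, tumour cells, microglia and macrophages are all known sources of such factors.

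All 10 are protein-coding genes, given here on the mm10 build with the GENCODE vM21 annotation. Among the ligands, Vegfa lies at chr17:46016993-46032369, Vegfb at chr19:6982473-6987651, Vegfc at chr8:54077606-54187096 and Pgf at chr12:85166635-85177790. Adm lies at chr7:110627661-110629820, Angpt2 at chr8:18690263-18741562 and Angptl4 at chr17:33773750-33781830. The receptors lie at chr5:147561604-147726011 for Flt1, chr8:128358604-128503363 for Nrp1 and chr1:62703285-62818695 for Nrp2. Nrp1 overlapped the annotated exons of another gene, the microRNA Mir1903, over 80 bases, and the other 9 shared no exonic bases with another gene. Antisense genes lie within the bounds of Adm (Gm28863) and Nrp2 (Gm29083). The protein-coding gene Mcph1, on the opposite strand, overlaps the bounds of Angpt2. Counts are per gene, so the soluble and membrane forms of Flt1 or the splice forms of Vegfa are not told apart.

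Vegfa, Pgf and Adm rose in hypoxia, and Nrp2 fell in BV2 cells and GL261 monocultures. The 250 bases before the RefSeq start of transcription are shown for these genes. They come from RefSeq on GRCm38.p6, 5′ to 3′ on the gene's strand, and capitals mark the cores ACGTG and GCGTG of hypoxia-response elements, searched on both strands (an opposite-strand GCGTG reads CACGC). The cores do not overlap each other in the letters shown. RefSeq and GENCODE place some starts differently: the Pgf window lies within the GENCODE bounds of Pgf, downstream of its annotated 5′ end, and the Nrp2 window runs past the GENCODE start of Nrp2.
Vegfa, chr17:46032378-46032627, minus strand: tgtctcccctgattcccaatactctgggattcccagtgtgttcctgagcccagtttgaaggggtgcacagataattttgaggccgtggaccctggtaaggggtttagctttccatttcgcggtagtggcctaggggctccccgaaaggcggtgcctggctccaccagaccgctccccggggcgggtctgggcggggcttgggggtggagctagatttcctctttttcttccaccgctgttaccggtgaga
Pgf, chr12:85177314-85177563, minus strand: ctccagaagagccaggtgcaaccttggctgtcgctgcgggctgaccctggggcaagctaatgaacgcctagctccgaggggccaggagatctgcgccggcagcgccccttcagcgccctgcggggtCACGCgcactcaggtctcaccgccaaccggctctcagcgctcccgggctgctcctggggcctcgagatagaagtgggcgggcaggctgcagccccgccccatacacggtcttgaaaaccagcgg
Adm, chr7:110627407-110627656, plus strand: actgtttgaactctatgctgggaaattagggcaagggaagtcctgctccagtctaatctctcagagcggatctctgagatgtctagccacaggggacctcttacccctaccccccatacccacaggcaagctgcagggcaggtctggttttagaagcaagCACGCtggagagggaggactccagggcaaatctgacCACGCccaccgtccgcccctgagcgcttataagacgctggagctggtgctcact
Nrp2, chr1:62703067-62703316, plus strand: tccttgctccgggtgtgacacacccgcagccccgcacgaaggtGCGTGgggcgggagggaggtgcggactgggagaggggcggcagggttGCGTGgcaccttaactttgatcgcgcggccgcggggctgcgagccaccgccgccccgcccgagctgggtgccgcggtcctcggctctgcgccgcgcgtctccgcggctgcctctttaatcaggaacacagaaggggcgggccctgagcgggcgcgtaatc

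The table held 8 of the 10 genes, and Angpt2 and Angptl4 had no entry. At the outermost start, 6 of the 8 held at least 1 core, while 38.6% of the 32851 mouse promoter windows of this length did. GCGTG was in 28.2% of all windows and ACGTG in 16.6%. Adm held 2 GCGTG cores, with their first bases 90 and 54 bases before the start, Nrp2 held 2, at 207 and 160 bases, and Pgf held 1, at 124 bases. Vegfb held 2, Flt1 and Nrp1 held 1 each, and the outer Vegfa and Vegfc windows held none, so genes that rose and genes that fell both held the core. A second Vegfa start inside the gene held 1 ACGTG and 1 GCGTG. These are matches of letters and no binding was measured.

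Library totals ran from 9634700 to 27238900 counts, to 6 significant digits, and 3 counts in a library correspond to 0.110 to 0.311 CPM, the reads of a gene scaled to library size, which is the unit used below. Of 5 hypoxia-response genes (Slc2a1, Bnip3, Ndrg1, Car9 and Egln3), 4 passed the test as higher in hypoxia in each monoculture of the first experiment. In the second experiment, with DMSO, 4 of 4 testable ones passed as higher in BV2. In BMDM with DMSO only 1 of the 5 passed, although their median log2 change was 3.02. All 10 myeloid markers reached 1 CPM in BMDM, and their sum was 15819.0 to 17415.4 CPM in normoxic monoculture. In BV2 the same sum was 2117.1 to 2160.6 CPM and the microglial factor Sall1 was at 0 in monoculture. GL261 monocultures had 6.40 to 19.5 CPM of myeloid markers in sum, and 7 of 8 glial markers reached 1 CPM there. Of 8 endothelial markers, 2 or 3 reached 1 CPM in each group of the first experiment, Kdr, Egfl7 and Pecam1 being the 3 in hypoxic BV2. Cldn5 and Emcn were at 0 in the hypoxic monocultures of all 3 cell types, and the markers' sum was at most 84.7 CPM in any library of the first experiment.

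Levels of different genes were compared per kilobase of exons. The length was that of all annotated exons of a gene merged, from 1605 bases for Vegfb to 13504 for Flt1. The forms expressed were not told apart, so the order depends on the annotation. In normoxic BV2 cells Vegfb was the most abundant of the 10 at 63.6 CPM per kb, followed by Nrp2 at 28.9, Flt1 at 20.8, Vegfa at 10.2 and Nrp1 at 8.76, means of 2 libraries. In normoxic GL261 cells the order began with Vegfb at 26.3 CPM per kb, Angpt2 at 16.4, Nrp2 at 13.9, Nrp1 at 10.8 and Vegfa at 10.5. In normoxic BMDM, Nrp2 led at 44.3 CPM per kb, before Vegfb at 18.6, Nrp1 at 17.1, Vegfc at 10.2 and Vegfa at 8.17. After 16 h of hypoxia Vegfa was the most abundant of the 10 in each monoculture, at 87.8 CPM per kb in BV2, 120.4 in GL261 and 153.0 in BMDM. The second place in hypoxic BMDM was taken by Adm at 65.9 CPM per kb, which had been at 0.17 in normoxia. The count tables of the lines and of BMDM were scaled separately, so these levels are set side by side and not tested across them.

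**Figure D1:**
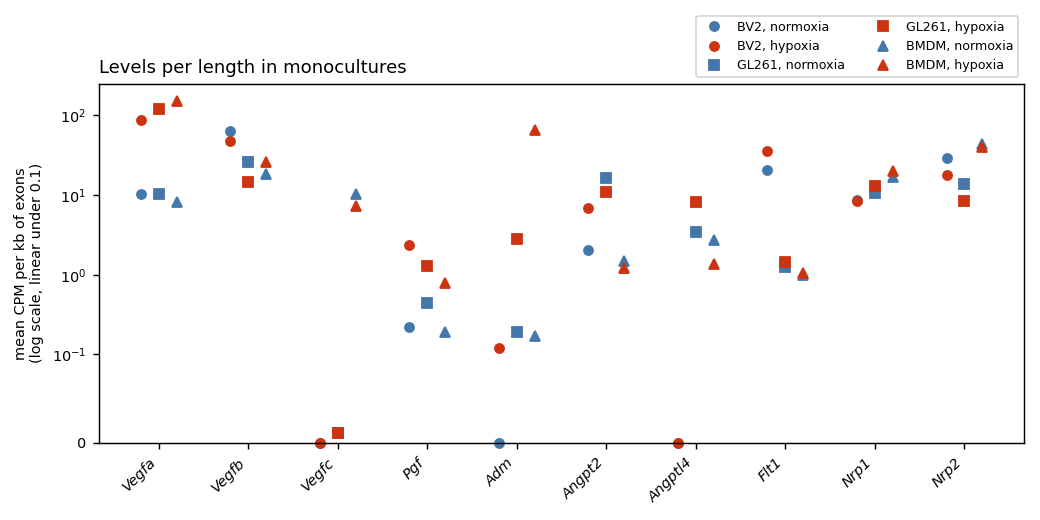
Mean level of each gene in the monocultures of the first experiment, in CPM per kilobase of exons on a log axis that is linear under 0.1; shapes give the cell type, blue is normoxia and red hypoxia, each point the mean of 2 libraries, and red covers blue where both lie at the same place. Vegfa reaches 87.8, 120.4 and 153.0 CPM per kb in hypoxia, while Adm is at 0.12 in hypoxic BV2 and at 65.9 in hypoxic BMDM.

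Hypoxia was compared with normoxia first in cells grown alone. Vegfa rose in all 3 cell types. In BV2 it was 38.9 and 47.9 CPM in normoxia and 380.4 and 391.4 CPM in hypoxia. In GL261 it was 40.6 and 45.9 against 504.2 and 525.9 CPM, and in BMDM 36.9 and 28.0 against 765.9 and 687.0 CPM. Every hypoxic library lay above every normoxic library of its cell type, which with 2 libraries a group held for 39.4% of all genes in BV2, 34.8% in GL261 and 37.4% in BMDM, while 40.2%, 36.1% and 34.2% lay below without overlap. Lack of overlap is thus common among all genes and only describes the libraries. The normoxic levels of the cell types were close to each other. By edgeR the rise was 8.90-fold in BV2 (log2 fold change 3.15, SE 0.14, adjusted p = 5.7e-11), 11.9-fold in GL261 (3.57, SE 0.18, adjusted p = 3.75e-07) and 22.3-fold in BMDM (4.48, SE 0.32, adjusted p = 1.43e-05). Of all genes tested, 61.9% were called in the BV2 contrast, 44.6% in that of GL261 and 23.9% in that of BMDM, so that a call alone is common in the lines. The difference of the Vegfa effect between BV2 and GL261, tested as an interaction, was -0.32 (SE 0.21, adjusted p = 0.265).

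Pgf also rose in each monoculture from a low level. It went from 0.680 and 0.579 CPM to 6.66 and 7.52 CPM in BV2, from 1.53 and 0.960 to 3.74 and 3.64 CPM in GL261, and from 0.383 and 0.630 to 2.25 and 2.83 CPM in BMDM. The libraries of the oxygen levels did not overlap in any of the 3, as in the shares of all genes just given. The rise was 11.1-fold in BV2 (log2 3.48, SE 0.26, adjusted p = 1.09e-08 by edgeR), 2.94-fold in GL261 (1.56, SE 0.34, adjusted p = 0.00333) and 4.99-fold in BMDM (2.32, SE 0.58, adjusted p = 0.0157). The BV2 rise was larger than that of GL261 by 2.02 on the log2 scale (SE 0.44, adjusted p = 0.00122 for the interaction), beside 37.4% of all genes called in that interaction and 18.7% called as higher in BV2. In BMDM the Pgf call was lost when any 1 of the 4 libraries was left out, with adjusted p from 0.0503 to 0.143.

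Adm separated the cell types. In BMDM it was 0.383 and 0.126 CPM in normoxia (7 and 2 counts) and 127.4 and 108.8 CPM in hypoxia (1751 and 1575 counts). This was a 435.1-fold rise by edgeR (log2 8.77, SE 0.58, adjusted p = 1.02e-05), which became 9.71 or 8.15 on the log2 scale without the first or the second normoxic library. In GL261 Adm went from 0.0512 and 0.534 CPM (1 and 10 counts) to 4.85 and 4.34 CPM (log2 3.97, SE 0.58, adjusted p = 0.000284), or 6.35 without the second normoxic library and 3.09 without the first. In BV2 Adm had no count in either normoxic library and 7 counts over both hypoxic libraries, too few to enter the test. That is at least 3.05-fold higher than the 3 counts that a total of 0 over the group allows. Adm was thus at most 0.534 CPM in every normoxic monoculture of the first experiment, and in hypoxia its BMDM libraries there lay far above those of both lines. In the second experiment it was 19.3 and 4.09 CPM in normoxic BMDM with DMSO.

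Angpt2 moved in opposite directions in the cell lines. In BV2 it was 7.78 and 7.26 CPM in normoxia and 26.3 and 25.5 CPM in hypoxia, a 3.44-fold rise (log2 1.78, SE 0.15, adjusted p = 4.44e-08 by edgeR). In GL261, where it was highest, it fell from 54.7 and 61.7 CPM to 41.5 and 39.0 CPM (log2 -0.53, SE 0.12, adjusted p = 0.00485). In BMDM it stayed between 4.51 and 5.39 CPM in all 4 monoculture libraries (log2 -0.05, SE 0.37, adjusted p = 0.954). The difference between BV2 and GL261 was 2.41 on the log2 scale (SE 0.19, adjusted p = 5.05e-08). Even so, hypoxic GL261 libraries remained above hypoxic BV2 libraries, and these lay above BMDM.

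Angptl4 was detected in GL261 and BMDM but not in BV2 monocultures, whose 4 libraries had no count. In GL261 it went from 13.8 and 9.76 CPM to 39.4 and 19.4 CPM (log2 1.32, SE 0.39, adjusted p = 0.0168 by edgeR). The hypoxic libraries stood apart from each other by more than the normoxic ones, and the call was lost without the second normoxic library (adjusted p = 0.106) or the first hypoxic library (adjusted p = 0.158). In BMDM it was 8.81 and 8.88 CPM in normoxia and 5.02 and 5.60 CPM in hypoxia (log2 -0.74, SE 0.39, adjusted p = 0.198), so the libraries did not overlap but the difference missed the threshold. The BMDM of the second experiment, given DMSO, had the opposite direction, from 15.4 and 14.8 to 59.6 and 33.7 CPM (log2 1.63, SE 1.20, adjusted p = 0.419). Fitting only these 2 BMDM groups gave an adjusted p of 0.0149.

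Vegfb was 110.4 and 92.3 CPM in normoxic BV2 and 79.9 and 76.8 CPM in hypoxic BV2 (log2 -0.37, SE 0.12, adjusted p = 0.0157 by edgeR). In GL261 it was 42.4 and 39.1 against 19.0 and 27.9 CPM (log2 -0.80, SE 0.21, adjusted p = 0.00883). In BMDM it was 29.3 and 26.0 against 49.5 and 42.2 CPM (log2 0.73, SE 0.21, adjusted p = 0.0264). Vegfb thus fell in both lines and rose in the macrophages, each with no overlap between libraries, as 40.2% of all genes had when lower in BV2, 36.1% when lower in GL261 and 37.4% when higher in BMDM. These 3 calls rest on single libraries: in BMDM, leaving out any 1 of the 4 gave adjusted p from 0.0751 to 0.208. In BV2 the call was lost without the first normoxic library (0.197), the first hypoxic library (0.0503) or the second hypoxic library (0.0907), and in GL261 without the first library of either oxygen level (0.0534 and 0.0897). Vegfc was a macrophage transcript, at 22.0 and 24.4 CPM in normoxic and 21.0 and 18.6 CPM in hypoxic BMDM (log2 -0.23, SE 0.53, adjusted p = 0.802). No BV2 library of the first experiment had a Vegfc count, and no GL261 library exceeded 0.0535 CPM.

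**Figure D2:**
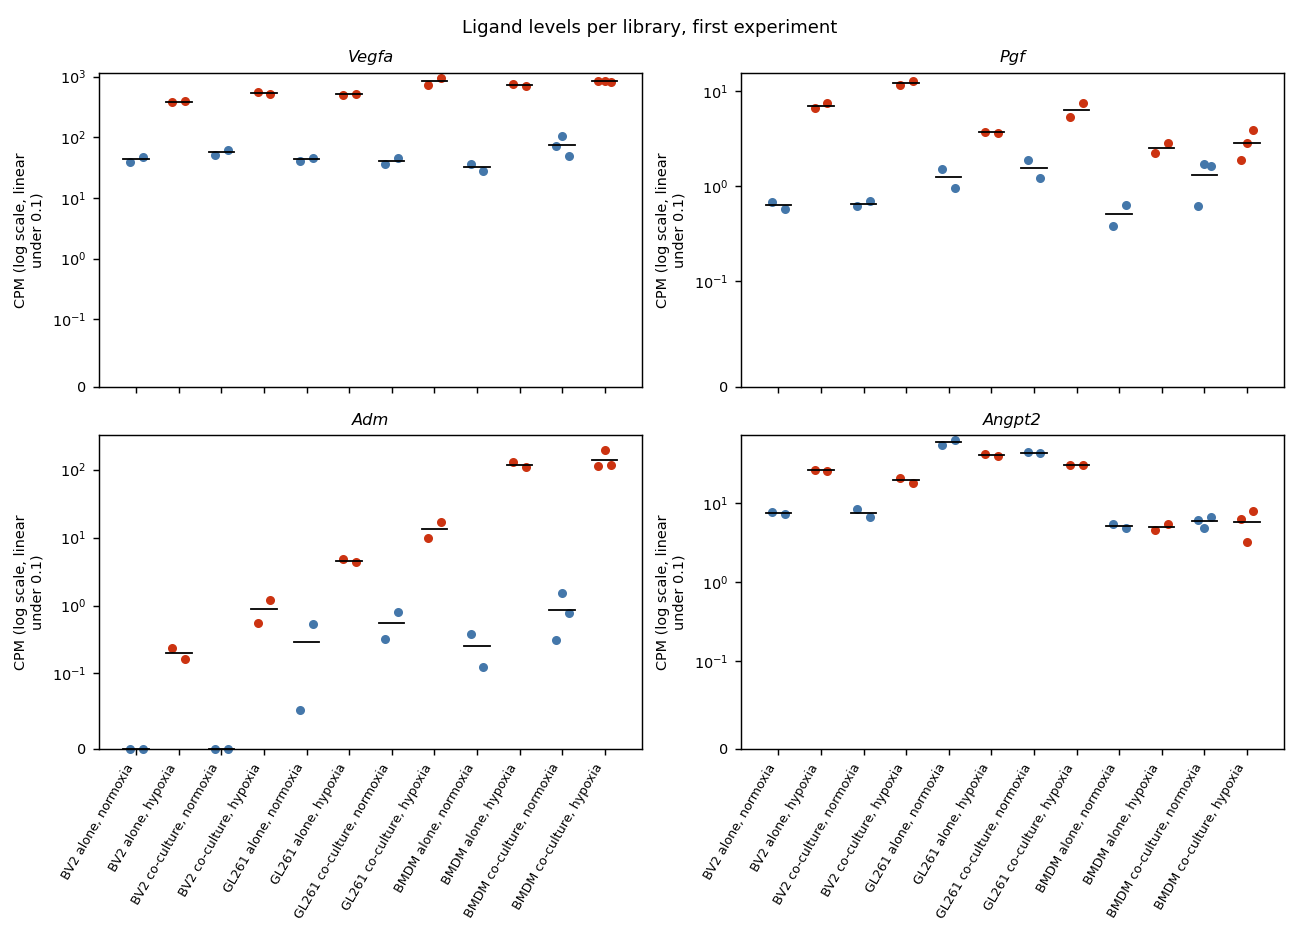
CPM of Vegfa, Pgf, Adm and Angpt2 in every library of the first experiment (log axis, linear under 0.1); blue points are normoxic libraries, red points hypoxic libraries and black lines group means, with 2 or 3 libraries a group. Vegfa and Pgf are higher in every hypoxic library than in the normoxic libraries of the same cell type and culture, Adm reaches 192.4 CPM in BMDM, and Angpt2 is higher in hypoxia in BV2 and lower in GL261.

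Among the receptors, Flt1 was chiefly a BV2 transcript. It was 239.6 and 317.6 CPM in normoxic and 470.2 and 518.1 CPM in hypoxic BV2 (log2 0.83, SE 0.13, adjusted p = 4.92e-05 by edgeR). In GL261 it lay between 14.3 and 21.7 CPM over the 4 monoculture libraries, and in BMDM between 7.23 and 22.4 CPM. Neither moved past the threshold (log2 0.27, SE 0.18, adjusted p = 0.251 in GL261 and 0.36, SE 0.52, adjusted p = 0.656 in BMDM), and in BMDM the 2 libraries of each group differed more than the groups did. The BV2 effect exceeded that of GL261 by 0.66 on the log2 scale (SE 0.23, adjusted p = 0.0307). Leaving out any 1 of 4 libraries ended that call: the second GL261 library of either oxygen level (0.327 in normoxia, 0.223 in hypoxia), the first normoxic BV2 library (0.165) or the second hypoxic BV2 library (0.105).

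Nrp1 in BV2 was 75.5 and 94.2 CPM in normoxia and 73.1 and 97.0 CPM in hypoxia, with overlapping libraries (log2 0.00, SE 0.15, adjusted p = 0.99 by edgeR). In GL261 it was 102.9 and 100.6 against 141.1 and 112.0 CPM (log2 0.32, SE 0.14, adjusted p = 0.0922). In BMDM it rose from 152.6 and 157.4 to 209.6 and 222.5 CPM (log2 0.48, SE 0.14, adjusted p = 0.0323), a call lost without any 1 of the 4 libraries (0.133 to 0.25) and when no filter on low counts was used (0.244). Nrp2 fell in BV2 from 309.9 and 368.2 to 203.7 and 230.1 CPM (log2 -0.64, SE 0.13, adjusted p = 0.000559). It fell in GL261 from 160.0 and 158.3 to 117.9 and 80.8 CPM (log2 -0.68, SE 0.16, adjusted p = 0.00553). In BMDM, which had the highest level, it was 488.1 and 485.8 CPM in normoxia and 572.0 and 479.6 CPM in hypoxia (log2 0.11, SE 0.18, adjusted p = 0.697). In both lines Nrp2 fell, while Nrp1 missed the threshold. In GL261 Nrp1 passed without the second hypoxic library (0.0194). Whether the effects on the neuropilins differ from each other was not tested.

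**Figure D3:**
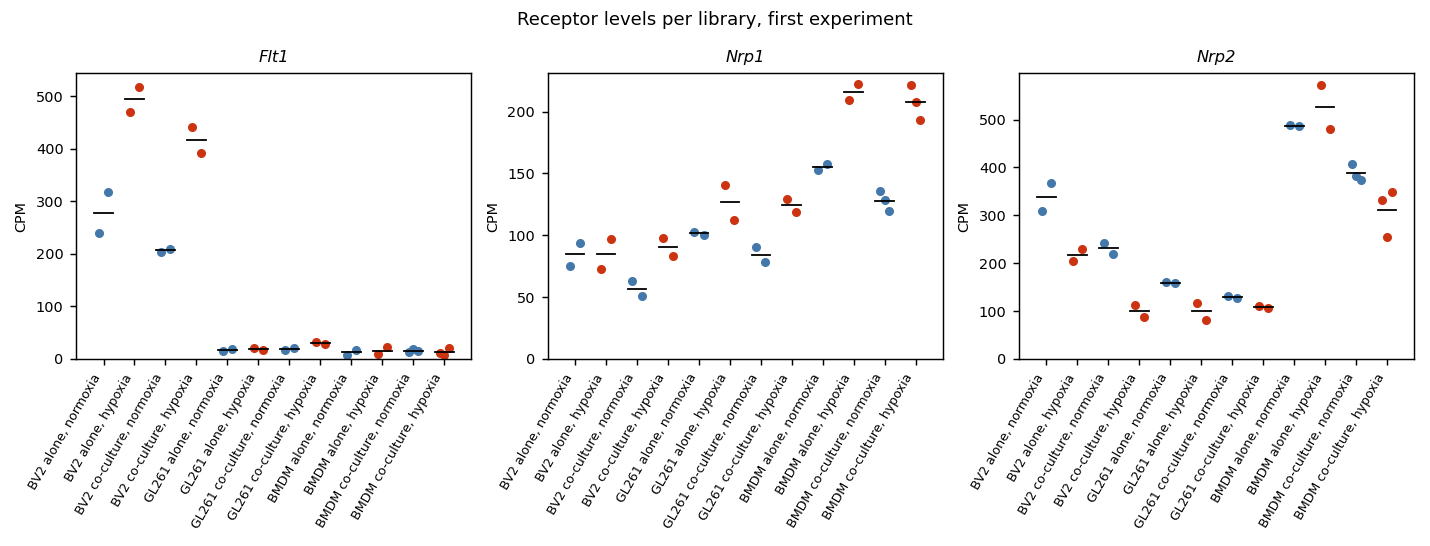
CPM of Flt1, Nrp1 and Nrp2 in every library of the first experiment on linear axes from 0; blue points are normoxic and red points hypoxic libraries, and black lines are group means. BV2 holds the high Flt1 values (203.0 to 518.1 CPM), and Nrp2 in BV2 steps down from 309.9 and 368.2 CPM to 113.5 and 88.0 CPM with hypoxia and co-culture combined.

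In total, 6 of 7 testable genes were called in BV2 monocultures (4 higher, 2 lower), 7 of 9 in GL261 (4 higher, 3 lower) and 5 of 10 in BMDM (5 higher, 0 lower). Of all genes, 30.9% were higher and 31% lower in BV2, 23.2% and 21.4% in GL261, and 13.3% and 10.6% in BMDM. Over the testable genes BV2 had a median log2 change of 0.83, GL261 of 0.32 and BMDM of 0.42, and over all genes the medians were 0.00, -0.03 and 0.03. The BMDM count went to 2 of 10, Vegfa and Adm, without any 1 of the 4 libraries.

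The same contrast in co-culture gave 8 called of 8 testable genes in BV2 (6 higher, 2 lower), beside 67.3% of all genes (35.2% higher, 32.1% lower). In GL261 it gave 8 of 9 (6 higher, 2 lower), beside 52.4% (26.8% higher, 25.6% lower), and in BMDM 3 of 10 (all higher), beside 34.8% (17.5% higher). Among the 6 higher in BV2 was Angptl4, with 33 counts in hypoxia and 2 in normoxia. It passed the filter on low counts only through hypoxic co-culture, so its call was not independent of the filter. At the partner share estimated below, GL261 RNA would supply 70.6% of its level there. Vegfa was 51.8 and 62.6 against 548.3 and 522.2 CPM in BV2, and 36.8 and 45.3 against 740.2 and 952.3 CPM in GL261. In BMDM it was 71.5, 103.6 and 48.8 CPM in normoxia and 858.1, 858.4 and 816.3 CPM in hypoxia. The rise was 9.34-fold, 20.6-fold and 11.3-fold (adjusted p = 5.03e-11, 9.97e-08 and 9.09e-06 by edgeR). Adm in co-cultured BMDM went from 0.309, 1.52 and 0.771 CPM to 112.9, 192.4 and 115.0 CPM (log2 7.33, SE 0.42, adjusted p = 2.82e-06), or 8.11 without the second normoxic library. In co-cultured GL261 it went from 0.325 and 0.798 to 9.78 and 16.8 CPM (log2 4.54, SE 0.52, adjusted p = 3.38e-05), or 5.36 without the second normoxic library.

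Nrp1 rose with hypoxia in all 3 kinds of co-cultured cell, by 0.68 on the log2 scale in BV2 (SE 0.16), 0.56 in GL261 (SE 0.14) and 0.70 in BMDM (SE 0.12; adjusted p = 0.00119, 0.00673 and 0.00105 by edgeR). The GL261 call was lost without the second normoxic library (0.065). Angpt2 again rose in BV2, from 8.30 and 6.67 to 20.5 and 18.02 CPM, and fell in GL261, from 43.5 and 43.4 to 30.3 and 29.9 CPM (adjusted p = 1.2e-06 and 0.00447). Nrp2 fell in BV2 (log2 -1.20, SE 0.14, adjusted p = 1.24e-06 by edgeR). In co-cultured GL261 it missed the threshold (log2 -0.26, SE 0.16, adjusted p = 0.200). Flt1 rose in both lines (log2 1.01, SE 0.13 in BV2 and 0.65, SE 0.18 in GL261). In GL261 that call was lost without the first library of either oxygen level (0.103 and 0.0659). Angptl4 in co-cultured GL261 rose by 1.43 (SE 0.40), or 0.72 without the first hypoxic library (adjusted p = 0.122). Without the second normoxic library its adjusted p was 0.0679. Vegfb fell by 0.48 in BV2 and by 1.18 in GL261, the former not without the second normoxic library (0.0714). In BMDM, Pgf was 0.618, 1.72 and 1.64 CPM in normoxia and 1.91, 2.83 and 3.90 CPM in hypoxia, with no overlap, as 22.3% of all genes were higher and 22.1% lower (log2 1.14, SE 0.44, adjusted p = 0.0683 by edgeR). Same-numbered libraries of these 2 groups deviated together, and with the replicate block Pgf passed (0.0219). It also passed without the first hypoxic library (0.0393).

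**Figure D4:**
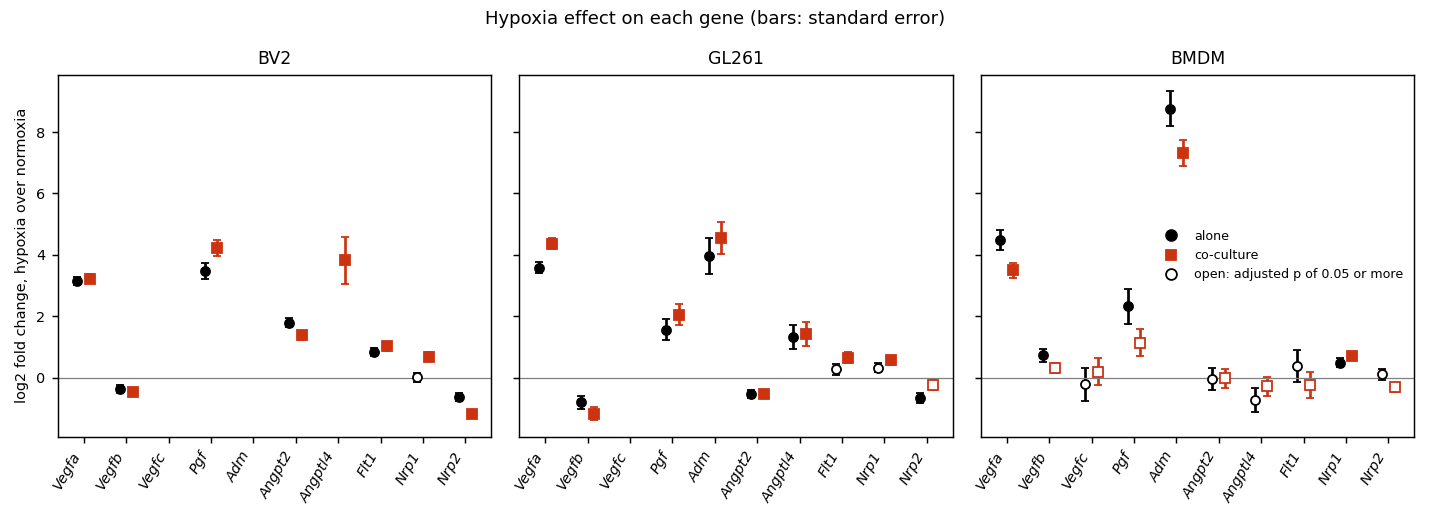
Log2 fold change of hypoxia over normoxia for each gene in BV2, GL261 and BMDM by edgeR; circles are monocultures, squares co-cultures, bars the standard error, and open symbols an adjusted p of 0.05 or more. Adm stands highest in BMDM, Vegfa in BMDM among the monocultures and in GL261 among the co-cultures, Angpt2 is above 0 in BV2 and below 0 in GL261, and genes with no symbol had no usable estimate.

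The wider pathway was counted from lists of 14 other ligands, 21 other receptors, and 12 inhibitors and semaphorins. In BV2 monocultures, 11 of the other receptors were testable, and 5 were higher and 1 lower in hypoxia. In GL261, 14 were testable, with 3 higher and 8 lower, and in BMDM 16, with 3 higher. Their median log2 changes were 0.24, -0.50 and 0.07. Of the other ligands, 2 were higher and 2 lower among 6 in BV2, 1 was higher among 4 in GL261, and 1 was higher among 9 in BMDM. Of the inhibitors and semaphorins, 4 were higher and 2 lower among 8 in BV2, 3 and 3 among 9 in GL261, and 0 and 1 among 9 in BMDM. The shares of all genes called are those given above for the same contrasts.

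Vash1, which encodes the secreted angiogenesis inhibitor vasohibin-1, fell in hypoxia in all 3 monocultures (log2 -1.88 in BV2, -1.58 in GL261 and -1.68 in BMDM). Calcrl, the adrenomedullin receptor, fell in BV2 from 29.6 to 8.69 CPM and rose in GL261 from 0.627 to 6.16 CPM. Its effects in the lines differed by -4.96 on the log2 scale (SE 0.37). Ramp2, the partner that makes Calcrl an adrenomedullin receptor, fell in GL261 from 19.6 to 3.85 CPM. Kdr rose in BV2 from 30.7 to 70.0 CPM (log2 1.19, SE 0.15), the receptor gene best known from endothelial cells. Of the other endothelial markers, Egfl7 was 14.9 CPM in normoxic and 4.45 CPM in hypoxic BV2 monocultures. Pecam1 was 0.261 and 1.22 CPM, and Cdh5 0.330 and 0.777 CPM. Tek and Cldn5 were at most 0.0227 CPM, and Tie1 and Emcn were at 0 in both. The part of such markers in the Kdr value was not tested. Thbs1, the inhibitor thrombospondin-1, rose in GL261 from 10.7 to 82.3 CPM. In BMDM, Ackr3, a scavenger receptor for chemokines and adrenomedullin, was at 0 in normoxia and at 3.88 CPM in hypoxia, and the endothelin receptor Ednrb rose from 2.05 to 6.73 CPM.

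Co-culture was compared with monoculture at each oxygen level, and here a partner's RNA can enter a library. The partner's share of a library, from the level of genes with a 100-fold difference between the cells, was 0.760% ± 0.271 (SD, n = 2) in normoxic and 2.22% ± 0.202 (SD, n = 2) in hypoxic co-cultured BV2. In GL261 it was 0.773% ± 0.202 (SD, n = 2) and 0.237% ± 0.0266 (SD, n = 2). In BMDM it ran from 1.30% to 3.70% over the 3 normoxic and from 1.72% to 6.28% over the 3 hypoxic libraries. In bulk RNA, fewer cells of a type and less RNA per cell cannot be told apart.

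In normoxic BV2 cells, co-culture with GL261 went with lower receptor levels. Nrp2 was 242.1 and 219.6 CPM beside 309.9 and 368.2 CPM alone (log2 -0.56, SE 0.13, adjusted p = 0.0125 by edgeR). Nrp1 was 62.9 and 50.6 beside 75.5 and 94.2 CPM (log2 -0.58, SE 0.16, adjusted p = 0.0208), and Flt1 203.0 and 209.9 beside 239.6 and 317.6 CPM (log2 -0.43, SE 0.13, adjusted p = 0.0393). Vegfa was higher, at 51.8 and 62.6 beside 38.9 and 47.9 CPM (log2 0.40, SE 0.13, adjusted p = 0.0486). None of the 4 overlapped, while 26.8% of all genes were higher and 34.1% lower without overlap. In this contrast 4 of 8 testable genes were called (1 higher, 3 lower), beside 14.9% of all genes (5.77% higher, 9.14% lower). All 4 calls were lost without the second BV2 monoculture library (adjusted p from 0.0687 for Vegfa to 0.43 for Flt1) and without the second co-culture library (from 0.0858 for Nrp2 to 0.412 for Vegfa). The Vegfa call was also lost without the first library of either group (0.332 and 0.0644), and that of Flt1 without the first co-culture library (0.171). With a filter at a mean CPM of 5, Flt1 and Nrp1 missed the threshold (0.107 and 0.0666), and Flt1 also with DESeq2 size factors (0.0541).

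In hypoxic BV2 cells, Nrp2 was 113.5 and 88.0 CPM in co-culture beside 203.7 and 230.1 CPM alone, 2.15-fold lower (log2 -1.11, SE 0.14, adjusted p = 4.47e-05 by edgeR). Pgf was 11.7 and 13.0 beside 6.66 and 7.52 CPM (log2 0.80, SE 0.18, adjusted p = 0.00686), and Vegfa 548.3 and 522.2 beside 380.4 and 391.4 CPM (log2 0.47, SE 0.12, adjusted p = 0.0155). These groups did not overlap, while 27.7% of all genes were higher and 26.8% lower without overlap. Here 4 of 8 testable genes were called (3 higher, 1 lower), beside 15.7% of all genes (8.13% higher, 7.57% lower). Vegfa lost its call without any 1 of the 4 libraries (0.0608 to 0.143), and Pgf without the first monoculture library (0.0902) or the second co-culture library (0.0751). Angptl4 was the fourth, with 33 counts over the co-culture libraries and 0 over the monocultures, at least 11.02-fold higher over the group's floor of 3 counts. It was testable only through these co-culture libraries, so its call was not independent of the filter. Angptl4 was 29.0 CPM in hypoxic GL261, and at the measured partner share GL261 RNA would supply 0.643 of the 0.910 CPM seen in co-cultured BV2. The hypoxia call for Angptl4 in co-cultured BV2 (33 against 2 counts, ratio 15.6, counting interval 4.32 to 128.9) rests on the same libraries. The same estimate gave 2.21% of the Vegfa, 0.682% of the Pgf and 2.24% of the Nrp2 level. Adm had 31 counts in hypoxic co-cultured BV2, of which the partner share would supply 11.8%. Angpt2 was 20.5 and 18.02 beside 26.3 and 25.5 CPM (log2 -0.43, SE 0.14, adjusted p = 0.0531).

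In GL261 cells 0 of 9 testable genes were called by edgeR in co-culture with BV2 at either oxygen level, beside 0.514% of all genes in normoxia and 1.39% in hypoxia. At an unadjusted p under 0.05 there were 1 in normoxia and 5 in hypoxia (8.47% and 15% of all genes), and DESeq2 called 0 and 1 (1.07% and 2.85%). Vegfa in hypoxia was 740.2 and 952.3 CPM in co-culture beside 504.2 and 525.9 CPM alone, with no overlap, as 21.8% of all genes were higher (log2 0.72, SE 0.16, adjusted p = 0.0541 by edgeR and 0.00117 by DESeq2). Adm was 9.78 and 16.8 beside 4.85 and 4.34 CPM (log2 1.53, SE 0.39, adjusted p = 0.0906). Same-numbered libraries of these hypoxic groups deviated together (correlation 0.584). With a replicate block in edgeR, Vegfa and Adm passed (adjusted p = 0.00839 and 0.0203). The partner share would supply 0.109% of that Vegfa level.

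In BMDM, 0 of 10 genes were called by edgeR in normoxic co-culture (4 at an unadjusted p under 0.05 and 1 by DESeq2), beside 1.64% of all genes (12.9% and 4.28%). Vegfa was 71.5, 103.6 and 48.8 CPM beside 36.9 and 28.0 CPM alone, without overlap, as 18.2% of all genes were higher (log2 1.20, SE 0.27, adjusted p = 0.0514 by edgeR and 0.00041 by DESeq2). It passed in edgeR without the third co-culture library (0.0169). In hypoxia 1 of 10 was called, as lower, beside 7.11% of all genes (3.05% lower). This was Nrp2, at 332.9, 254.0 and 349.3 CPM beside 572.0 and 479.6 CPM alone (log2 -0.75, SE 0.16, adjusted p = 0.0223). That call was lost without either monoculture library (0.199 and 0.113), with only these 2 groups in the fit (0.0986) and with a filter at a mean CPM of 5 (0.053). Nrp2 was thus lower in co-culture than alone in hypoxic BV2 and in hypoxic BMDM, while in hypoxic GL261 it was 110.0 and 106.9 beside 117.9 and 80.8 CPM (log2 0.12, SE 0.16, adjusted p = 0.763). Whether these effects differ between the cell types was not tested.

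Whether hypoxia acted differently in co-culture was tested as an interaction in each cell type. By edgeR 0 genes were called in BV2 (7 testable, beside 2.19% of all genes), GL261 (9, beside 0%) and BMDM (10, beside 0%). At an unadjusted p under 0.05 there were 2, 1 and 1 (19.9%, 8.91% and 4.3% of all genes), and DESeq2 called 0 in each (3.92%, 0.211% and 0.0608%). In BV2 the estimates were 0.68 for Nrp1 (SE 0.22, adjusted p = 0.105) and -0.55 for Nrp2 (SE 0.19, adjusted p = 0.124). Nrp2 passed without the first hypoxic co-culture library (0.0302). Both passed when no filter on low counts was used (0.049 for Nrp1 and 0.00892 for Nrp2). In GL261 Vegfa had 0.79 (SE 0.23, adjusted p = 0.47), and in BMDM -0.98 (SE 0.36, adjusted p = 1).

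Among the other pathway genes in co-cultured BV2, Pdgfra was higher both in normoxia (0.370 to 2.16 CPM) and in hypoxia (1.07 to 4.72 CPM), and Kdr was lower in normoxia (30.7 to 14.5 CPM). The hypoxia effect on Kdr was larger in co-culture, by 0.98 on the log2 scale (SE 0.22). Of 11 testable other receptors, 2 were higher and 5 lower in normoxic co-cultured BV2, beside 5.77% and 9.14% of all genes. In hypoxic co-cultured BV2, 2 were higher and 1 lower, beside 8.13% and 7.57%. In hypoxic co-cultured BMDM, 3 of 16 were higher and 3 lower, beside 7.11% of all genes called in either direction. Among those lower was Plxna4, a plexin co-receptor for semaphorins, at 2.49 beside 8.03 CPM alone. Sema3b, a semaphorin ligand of neuropilins, was 6.01 beside 0.284 CPM there. The partner's part was not estimated for these other pathway genes. Whether GL261 RNA accounts for the higher Pdgfra in co-cultured BV2 or the higher Sema3b in co-cultured BMDM was not tested.

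The second experiment measured hypoxia and panobinostat without glioma cells, and its BMDM libraries differed in makeup from those of the first experiment. The summed level of 6 fibroblast and mural markers was 21218.8 to 21870.7 CPM in BMDM with DMSO in normoxia. It was 2729.8 and 14096.7 CPM with DMSO in hypoxia and 10649.8 and 16766.4 CPM with panobinostat, beside 76.1 to 599.9 CPM in the 10 BMDM libraries of the first experiment. Col1a1, a type I collagen gene, averaged 12933.9 CPM with DMSO in normoxia and 105.1 CPM in the normoxic monoculture of the first experiment. None of the 6 markers was at 0 with DMSO in normoxia or with panobinostat, and Rgs5 was at 0 with DMSO in hypoxia. The 6 were not alike: with DMSO in normoxia Col1a2 averaged 6334.6, Acta2 1991.95 and Pdgfrb 280.7 CPM, but Dcn 2.81 and Rgs5 0.794 CPM. Dcn averaged 3.29 and 6.08 CPM in the normoxic and hypoxic BMDM co-cultures of the first experiment. The 10 myeloid markers summed to 18495.6 and 28439.4 CPM with DMSO in normoxia, 3850.7 and 10894.3 in hypoxia, and 1241.05 and 5261.4 with panobinostat. The part of these markers in the BMDM values below was not tested. BV2 libraries of the same experiment had 16.4 to 31.1 CPM of the fibroblast and mural markers and 1506.3 to 3543.1 CPM of the myeloid markers. Same-numbered libraries deviated together in both cell types here, so values with replicate number as a block are given where they change a call.

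In BV2 with DMSO, hypoxia raised Vegfa, Pgf and Angpt2 and lowered Nrp2. Vegfa was 130.2 and 61.3 CPM in normoxia and 503.5 and 338.5 CPM in hypoxia (log2 2.14, SE 0.35, adjusted p = 0.00157 by edgeR), or 2.81 without the first normoxic library. Pgf was 1.86 and 0.905 against 15.9 and 6.72 CPM (log2 3.03, SE 0.52, adjusted p = 0.00203), or 3.65 without that library and 2.28 without the first hypoxic library. Angpt2 was 8.27 and 6.40 against 47.2 and 27.0 CPM (log2 2.34, SE 0.32, adjusted p = 0.000662). Nrp2 fell from 700.5 and 408.4 to 293.7 and 222.4 CPM (log2 -1.10, SE 0.28, adjusted p = 0.0123), a call lost without the first normoxic library (0.0563) or the second hypoxic library (0.0592). No libraries of these 4 genes overlapped, while 33.7% of all genes were higher and 35.7% lower without overlap. By the test 4 of 7 testable genes were called (3 higher, 1 lower), beside 37.5% of all genes (17.2% higher, 20.2% lower). In both hypoxia and normoxia the first DMSO library lay above the second for Vegfa, Pgf, Angpt2, Flt1, Nrp1 and Nrp2. With the replicate block Flt1 rose as well (adjusted p = 0.0242), from 554.1 and 317.8 to 894.7 and 466.5 CPM, and Nrp1 fell (adjusted p = 0.0037), from 273.1 and 79.1 to 104.3 and 65.8 CPM. Without the block these were 0.173 and 0.0988, and with it 49% of all genes passed.

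Panobinostat in hypoxic BV2 changed 0 of 7 testable genes by edgeR (1 at an unadjusted p under 0.05, 0 by DESeq2), beside 14.6% of all genes (31.3% and 16.9%). Vegfa was 323.3 and 323.7 CPM beside 503.5 and 338.5 CPM with DMSO (log2 -0.38, SE 0.33, adjusted p = 0.475). Pgf was 23.7 and 14.1 beside 15.9 and 6.72 CPM (log2 0.74, SE 0.44, adjusted p = 0.281), and Angpt2 23.9 and 18.7 beside 47.2 and 27.0 CPM (log2 -0.80, SE 0.30, adjusted p = 0.0974). With the replicate block 3 passed, beside 30.3% of all genes, Pgf as higher (adjusted p = 0.0151), and Angpt2 and Nrp1 as lower (0.0071 and 0.0437). Nrp1 was 55.2 and 47.6 beside 104.3 and 65.8 CPM. Leaving out the first DMSO library let Pgf pass (0.048), and leaving out the second let Angpt2 pass (0.0255).

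Against normoxia with DMSO, hypoxic BV2 with panobinostat had 5 of 7 testable genes called (3 higher, 2 lower), beside 48.4% of all genes (23.6% higher, 24.8% lower). Vegfa, Pgf and Angpt2 rose by 1.76, 3.77 and 1.54 on the log2 scale (adjusted p = 0.00228, 0.00037 and 0.00275 by edgeR). Nrp1 and Nrp2 fell by 1.78 and 1.58 (adjusted p = 0.0109 and 0.00149). Without the first normoxic library, in which Nrp1 stood at 273.1 beside 79.1 CPM in the other, the Nrp1 change was -0.60 (adjusted p = 0.12), and without the second it was -2.39. Vegfa and Pgf were then 2.42 and 4.39. This contrast changes oxygen and drug together, and it shares its normoxic libraries with the DMSO contrast.

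In BMDM of the second experiment 0 of 10 genes were called by edgeR for hypoxia with DMSO, beside 0.483% of all genes, while 3 had an unadjusted p under 0.05 and DESeq2 called 3 (25.4% and 15% of all genes). Vegfa was 396.1 and 139.3 CPM in normoxia and 1106.3 and 979.9 CPM in hypoxia (log2 1.96, SE 0.57, adjusted p = 0.116). Adm was 19.3 and 4.09 against 291.4 and 128.1 CPM (log2 4.17, SE 0.91, adjusted p = 0.0829), and Vegfb 19.3 and 19.8 against 72.7 and 37.4 CPM (log2 1.496, SE 0.42, adjusted p = 0.111). Each of these was higher in hypoxia with no overlap, and so were Pgf, Nrp1 and Angptl4 and 29.9% of all genes. With the replicate block all 3 passed, beside 14.3% of all genes (adjusted p = 0.0293 for Vegfa, 0.0134 for Adm and 0.038 for Vegfb). Normoxic Vegfa was higher here than in the monocultures of the first experiment (36.9 and 28.0 CPM), which were scaled separately.

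Panobinostat in hypoxic BMDM changed 0 of 10 genes by edgeR, beside 0% of all genes, with 5 at an unadjusted p under 0.05 and 4 by DESeq2 (25.9% and 14.9% of all genes). Nrp1 was 76.4 and 110.4 CPM with panobinostat beside 262.6 and 267.7 CPM (log2 -1.51, SE 0.33, adjusted p = 0.0709), and Nrp2 97.0 and 233.3 beside 418.2 and 630.1 CPM (log2 -1.67, SE 0.50, adjusted p = 0.114). Vegfc was 9.30 and 10.2 beside 47.6 and 18.5 CPM (log2 -1.76, SE 0.50, adjusted p = 0.102). These 3 were lower without overlap, and so were Vegfa, Vegfb and Angpt2 and 27.7% of all genes. All 3 passed with the replicate block, beside 13.7% of all genes (adjusted p = 0.0267 for Nrp1, 0.028 for Nrp2 and 0.0484 for Vegfc). Pgf was 16.8 and 14.5 beside 6.71 and 7.31 CPM (log2 1.16, SE 0.31, adjusted p = 0.0958). Angptl4 was 421.7 CPM in the first panobinostat library and 18.4 CPM in the second, beside 59.6 and 33.7 CPM with DMSO, so the group's spread exceeded the difference (log2 2.24, SE 1.22, adjusted p = 0.298). The library with 421.7 CPM of Angptl4 had the lowest myeloid marker sum of the BMDM libraries, 1241.05 CPM. Its fibroblast and mural marker sum was 10649.8 CPM, below the 16766.4 CPM of the second panobinostat library. Whether the makeup of the libraries bears on Angptl4 was not tested.

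Against normoxia with DMSO, 2 of 10 genes were called in hypoxic BMDM with panobinostat (1 higher, 1 lower), beside 13.2% of all genes (7.82% higher, 5.38% lower). Pgf was higher (log2 1.56, SE 0.32, adjusted p = 0.0343 by edgeR) and Nrp2 lower (log2 -2.18, SE 0.51, adjusted p = 0.0448). Leaving out any 1 of the 4 libraries ended both calls, with adjusted p from 0.107 to 0.178 for Pgf and from 0.0774 to 0.194 for Nrp2. The Nrp2 change was -2.95 without the second panobinostat library, and its adjusted p was 0.0525 with a filter at a mean CPM of 5. With the replicate block 5 passed, beside 28.9% of all genes, the others being Vegfa and Adm as higher (adjusted p = 0.031 and 0.00514) and Angpt2 as lower (0.0489). The BV2 and BMDM effects differed for 0 genes by edgeR, both for hypoxia (10 testable, 4 at an unadjusted p under 0.05, 3 by DESeq2, beside 0.664%, 18.6% and 6.59% of all genes) and for panobinostat (9 testable, 0 at an unadjusted p under 0.05, 0 by DESeq2, beside 0.0251%, 11.2% and 1.4%). With the replicate block, beside 8.14% of all genes, the hypoxia effects differed for Vegfb (-1.54, adjusted p = 0.0369), Pgf (2.65, 0.0113) and Angpt2 (3.90, 0.018), as BV2 minus BMDM on the log2 scale.

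**Figure D5:**
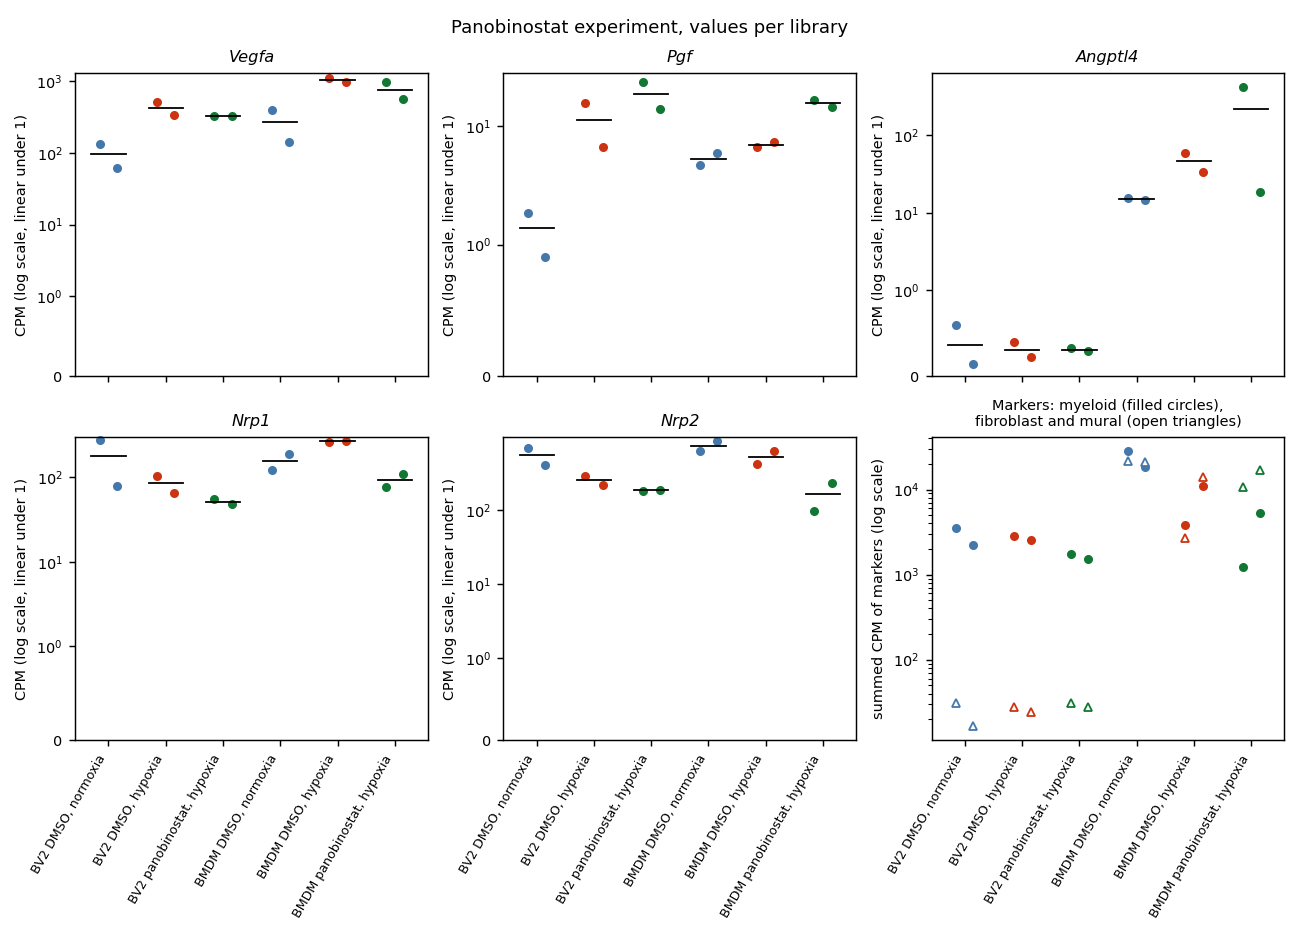
CPM of Vegfa, Pgf, Angptl4, Nrp1 and Nrp2 in every library of the panobinostat experiment (log axis, linear under 1) and, in the last panel, summed CPM of myeloid (filled circles) and of fibroblast and mural markers (open triangles) on a log axis; blue is DMSO in normoxia, red DMSO in hypoxia, green panobinostat in hypoxia, and black lines are means of 2 libraries, the first library drawn on the left. Nrp1 and Nrp2 are lowest with panobinostat in both cell types, and the BMDM libraries hold 2729.8 to 21870.7 CPM of fibroblast and mural markers.

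Among the other pathway genes of this experiment, Calcrl and Vash1 fell with hypoxia in BV2 with DMSO (22.6 to 4.08 CPM and 9.64 to 2.54 CPM). Panobinostat then went with a higher Vash1 (8.39 CPM) and a higher Pdgfra (5.21 beside 0.531 CPM). It went with a lower Serpinf1, the gene of the angiogenesis inhibitor PEDF (18.4 beside 56.2 CPM). In BMDM, Apln, the ligand of the apelin receptor, rose with hypoxia from 1.12 to 36.0 CPM. Flt4, the Vegfc receptor, was higher with panobinostat in hypoxia than with DMSO in normoxia (29.5 beside 1.92 CPM), and the mural receptor gene Pdgfrb was lower (62.5 beside 287.9 CPM).

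The genes whose pattern most resembled each member's were taken from group means of log2(CPM + 1) over the 18 groups, each centred within its cell type and experiment, as a description. Groups of a cell type and experiment share libraries' scaling, and the correlations carry no test. For Vegfa they were P4ha1 (r = 0.983), a collagen prolyl hydroxylase subunit, Hk2 (0.980), the first enzyme of glycolysis, and Maff (0.977), a transcription factor. For Pgf the first were Dcaf6 (0.965) and Mxd1 (0.962). For Angpt2 they were Ssh1 (0.974), Stx2 (0.899) and Pld2 (0.891), and for Flt1 Nt5dc3 (0.940), Phactr4 (0.886) and Uaca (0.868). Nrp1 was most like Tmem68 (0.928), Tmem168 (0.925) and N4bp2 (0.913), and Nrp2 most like Ctdsp1 (0.951), Paqr7 (0.944) and Calhm2 (0.943). Vegfb was most like Sec61b (0.920), Cfap20 (0.916) and Prdx1 (0.904). No gene named here was listed for more than 1 member. Vegfc, Adm and Angptl4 were not compared, because they did not reach 1 CPM in every cell type and experiment.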

How the data were processed

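The authors deposited 3 tables of unnormalized counts, 1 row per Ensembl ID. The submitters' processing notes name Trimmomatic 0.36, STAR 2.6, SAMtools and HTSeq 0.9.1 with mm10, and for 16 libraries also Picard 2.17.1. Their annotation and strand setting are not given in the sources used here. Every column matched a label. No pair of replicates was identical, and all 22 pairs differed by more than sampling noise. Totals of 9634700 to 27238900 counts set the floor of 3 counts at 0.110 to 0.311 CPM. The labels name no molecular identifiers, so floors cover counting error only. A gene counted without strand cannot be told from an overlapping antisense gene.

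Each cell type within a table was fitted with the quasi-likelihood test of edgeR 4.0.16 in R 4.3.3, on all its groups, after the package's filter (minimum count 10, minimum total 15) and TMM scaling. The threshold was a Benjamini-Hochberg adjusted p of 0.05 over all genes tested. Interactions used 1 fit of the BV2 and GL261 libraries or of the panobinostat experiment. CPM are TMM-scaled within a fit, except for levels per kilobase, partner shares and marker sums. Members with a fitted SE over 100 or no counts were given no estimate. Partner genes had at least 20 CPM in the partner and were 100-fold higher there after adding 0.5 CPM. The test was tried on simulated data. Alternatives were DESeq2 1.42.0, its size factors, 2 other filters, fits of only 2 groups, a replicate block, leaving out each library, and subtracting the partner's part.

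To see whether replicate numbers pair the libraries, the log2 CPM of each, less its group's mean, was correlated with that of others with the same number. In the panobinostat experiment every pair was above 0.1 (0.223 to 0.493 for BV2 and 0.340 to 0.660 for BMDM), so the numbers, which come from the sample titles, were taken as pairing. This comes from the data and not from a stated design. The main fits used no replicate block, so their counts of called genes leave that pairing out. With 2 libraries a group both numbers give the same value, so the 6 pairs of a cell type hold 3 distinct values. In the first experiment the lowest pair was -0.151 for BV2, 0.0586 for GL261 and -0.00907 for BMDM, and they were not, except between normoxic and hypoxic co-cultured BMDM, whose 3 pairs were at 0.246 to 0.556. The members and lists were chosen with earlier results of these data known. All 10 members are named. Of the other pathway genes, those named are called genes of mean log2 CPM 1 or more, at most 2 that rose most and 2 that fell most per comparison. For genes alike in pattern, 7493 genes that reached 10 CPM in some group of every cell type and experiment were searched, leaving out Gm and Rik names. One of the genes alike in pattern is not reported here.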

Additional observations from a re-analysis of the deposited data

Results flagged for a closer look

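The response to hypoxia differed between the BV2 and GL261 monocultures for 3 of 8 testable genes, by the test of the difference itself in edgeR. All 3 were called as higher in BV2. Of all genes, 37.4% were called in this test and 18.7% as higher in BV2, so the count is near that of all genes. On the log2 scale, BV2 minus GL261, this was 2.02 for Pgf, 2.41 for Angpt2 and 0.66 for Flt1, the last not without any 1 of 4 libraries.

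Another 4 differences are listed because all libraries of a cell type moved one way and all of another the opposite way. These differences were not tested, and with 2 libraries a group lack of overlap is common: in BV2 monocultures 39.4% of all genes were higher and 40.2% lower without it. For Vegfb the hypoxia effect in BV2 minus that in BMDM monocultures was -1.10, and in GL261 minus BMDM -1.53. For Angptl4 the effect in GL261 minus that in BMDM monocultures was 2.06, while BMDM with DMSO had a change of 1.63 (adjusted p = 0.419 by edgeR), in the direction of GL261. For Angpt2 the effect in co-cultured BV2 minus that in co-cultured GL261 was 1.90.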

How the results depend on the processing

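No called change of the 10 genes turned its sign in any alternative. Of 60 calls, 38 held in every alternative that gave a value, 22 were lost on leaving out some library and 5 in some other setting. The counts of called genes below moved by over 1.5 times or from 0. The cause was not tested. The share of all genes called, in brackets, often moved with them. For normoxic BMDM in co-culture, where edgeR called 0 (1.64%), DESeq2 called 1 (4.28%), a fit with no filter beyond 1 count 2 (3.96%) and the replicate block 1 (2.92%). For hypoxic BMDM in co-culture the 1 call (7.11%) became 0 with a filter at a mean CPM of 5 (3.11%) and with only the 2 groups compared (1.65%). For hypoxia in BMDM with DMSO the 0 (0.483%) became 3 with DESeq2 (15%), 4 with no filter (12.6%) and 3 with the block (14.3%), and for panobinostat in BMDM the 0 (0%) became 4 (14.9%), 4 (11.05%) and 3 (13.7%). For panobinostat in hypoxia against DMSO in normoxia, the 2 of BMDM (13.2%) became 6 (25.5%), 7 (17.1%) and 5 (28.9%), and 1 at a mean CPM of 5 (12.2%). For GL261 in hypoxic co-culture the 0 (1.39%) became 1 (2.85%), 3 (2.56%) and 2 (4.31%), and for the hypoxia difference between BV2 and BMDM the 0 (0.664%) became 3 (6.59%), 4 (4.81%) and 3 (8.14%). With no filter the BV2 interaction had 2 (3.76%, from 0 and 2.19%), panobinostat in BV2 had 2 (11.7%, from 0 and 14.6%) and the panobinostat difference between cell types 1 (2.15%, from 0 and 0.0251%). Panobinostat in BV2 had 3 with the block (30.3%). In normoxic co-cultured BV2 a mean CPM of 5 left 2 of 4 calls (12.4%, from 14.9%). Leaving out each library gave 2 to 2 calls for hypoxia in BMDM monocultures, 0 to 1 for normoxic and 0 to 1 for hypoxic co-cultured BMDM, and 0 to 0 for panobinostat against normoxia in BMDM. It gave 0 to 3 for normoxic and 2 to 5 for hypoxic co-cultured BV2, 0 to 1 for the BV2 interaction and 0 to 1 for panobinostat in BV2. It gave 0 to 2 for the hypoxia difference between BV2 and BMDM, the 2 (Vegfb, 0.0201, and Angpt2, 0.0338) without the second hypoxic BMDM library with DMSO. Other genes that passed without a library were Angpt2 in hypoxic co-cultured BV2 (adjusted p = 0.0253, first co-culture library), Nrp1 (0.0059, second normoxic library) and Flt1 (0.0309, second hypoxic library) for hypoxia in BV2 with DMSO, and Nrp1 for hypoxia in GL261 alone (0.0194) and Vegfb for its difference between the lines (0.0259), both without the second hypoxic GL261 monoculture. Where an arm then held 1 library, it was assumed to vary like the other groups. Subtracting the partner's part turned the sign of 5 uncalled log2 ratios: Angpt2 in normoxic co-cultured BMDM from 0.16 to -0.23, Angpt2 and Angptl4 in hypoxic co-cultured BMDM from 0.35 to -0.10 and from 0.25 to -0.05, and Angpt2 and Vegfb in normoxic co-cultured BV2 from 0.05 to -0.04 and from 0.000925 to -0.00361.

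In the first experiment the co-cultured BMDM groups, the only ones with 3 pairs, deviated together by number, and the replicate block let Pgf pass there for hypoxia. Elsewhere there the numbers were not taken as pairing, but the groups of some contrasts still deviated together. The correlation was 0.584 between hypoxic GL261 alone and in co-culture, and 0.312 and 0.358 between normoxic BMDM alone and in co-culture. It was -0.0129 between hypoxic BV2 alone and in co-culture, and 0.0586 between normoxic and hypoxic GL261 alone. The block added Vegfa (adjusted p = 0.0204 by edgeR) in normoxic co-cultured BMDM and Angpt2 (0.0368) in hypoxic co-cultured BV2. It also added Nrp1 (0.0443) for hypoxia in GL261 alone, and Vegfa (0.00839) and Adm (0.0203) in hypoxic co-cultured GL261. The block ended no call in either experiment. Changes of genes under about 1 CPM, such as Adm in BV2 of the first experiment and in normoxic monocultures there, rest on few counts.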
